A study of Mus musculus with 12 samples.

Results

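Anti-miR-106b was compared with a scrambled anti-miR in regenerating muscle 3 days after injury. All mice were 4-month-old dystrophic C57BL/10ScSn-Dmdmdx/J (mdx) animals, which carry a mutation of the dystrophin gene Dmd. The injected tibialis anterior muscles received cardiotoxin, a cobra venom peptide that kills muscle fibres and sets off regeneration. Anti-miR106b was given with it in one arm and anti-miR-Scrambled in the other, and whole muscle was taken for RNA sequencing at 3 or 7 days. Both arms therefore carried the mdx mutation and the cardiotoxin injury, and they differed by the anti-miR. Each group held 3 animals, so the comparison rests on 6 of the 12 libraries. Genes with at least 1 CPM (the reads of a gene scaled to a fixed library size, where 1 CPM here stood for 35.5 to 46.9 reads) in at least 3 of those 6 libraries were tested, which kept 13662 of 28116 deposited gene symbols (48.6%). The design text of the series once gives day 5 for the later time and the sample labels give day 7, which is used here. The labelled tissue was checked against 6 skeletal muscle genes: Acta1, Ckm, Mylpf, Tnnt3, Myh4 and Ttn were all present in every day 3 library, and Ttn, the lowest of them, lay between 11.50 and 12.40 log2 CPM.

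MicroRNAs are short RNAs that guide Argonaute proteins to messenger RNAs, mostly by pairing of their seed, the bases near the 5′ end, with the 3′ untranslated region (UTR). Pairing lowers the stability or translation of the target, and an anti-miR is an antisense oligonucleotide that binds the microRNA and blocks it. miR-106b is made from an intron of Mcm7, a gene of the replicative helicase, together with miR-93 and miR-25. After cardiotoxin, dead fibres are cleared by macrophages while satellite cells, the stem cells of muscle, divide, fuse and form new fibres that at first express embryonic isoforms of contractile and metabolic proteins.

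The mature microRNAs below share bases 2 to 8 with miR-106b-5p and are shown because a seed match in a target is the same for all of them. Capitals mark the seed, and sequences and positions are from RefSeq on GRCm38.p6.
mmu-miR-106b-5p, chr5:138165787-138165807, minus strand: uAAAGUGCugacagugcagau
mmu-miR-93-5p, chr5:138165574-138165596, minus strand: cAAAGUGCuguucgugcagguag
mmu-miR-17-5p, chr14:115043684-115043706, plus strand: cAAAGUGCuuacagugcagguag
mmu-miR-20a-5p, chr14:115044183-115044205, plus strand: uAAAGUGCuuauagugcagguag
mmu-miR-20b-5p, chrX:52742159-52742181, minus strand: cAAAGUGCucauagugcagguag
mmu-miR-106a-5p, chrX:52742541-52742563, minus strand: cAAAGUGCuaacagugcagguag
mmu-miR-6383, chrX:136183262-136183282, plus strand: uAAAGUGCugugucacggaca
These 7 microRNAs carry the same seed and differ behind it. miR-17-5p, miR-20a-5p and miR-106a-5p each match miR-106b-5p at 18 of its 21 positions counted from the 5′ end. The match is 17 for miR-20b-5p, 16 for miR-93-5p and 10 for miR-6383. The microRNAs themselves were not analysed here, so the block of miR-106b was not measured. The host gene Mcm7 (chr5:138164583-138172422, GRCm38) read 4.56, 4.54 and 4.40 log2 CPM in the 3 scrambled libraries and 4.92, 5.07 and 4.79 in the 3 anti-miR-106b libraries. Every anti-miR-106b library lay above every scrambled one, and the log2 fold change was 0.43 ± 0.09 (SE, adjusted p = 0.00242, limma).

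The anti-miR-106b arm differed from the scrambled arm over a large share of the expressed genome, mostly by modest amounts. Of 13662 genes, 4950 (36.2%) passed at a Benjamini-Hochberg adjusted p below 0.05 in limma. In the anti-miR-106b libraries 2306 genes (16.9%) were higher and 2644 (19.4%) were lower. The median size of the change among them was 0.44 on the log2 scale. Only 70 were at least 2-fold higher and 88 at least 2-fold lower. The 3 and 3 libraries did not overlap for 61.1% of tested genes in either direction. Among the gene lists other than cell type markers, the lowest medians were those of mitochondrially encoded genes (-0.81), excitability channels and pumps (-0.57), the tricarboxylic acid cycle (-0.55) and glycolytic enzymes (-0.53). The highest were those of antiviral effectors (0.76), the phagocyte NADPH oxidase (0.66), Fc receptor and ITAM signalling (0.63) and MHC class I presentation (0.58). A value after ± is the SE of a log2 fold change in the fit, n = 3 in each arm. Where 3 values are set against 3, the scrambled libraries come first, each arm in the order of replicates 1 to 3. Counts of list members that rose or fell stand beside the 16.9% and 19.4% of all tested genes.

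**Figure D1:**
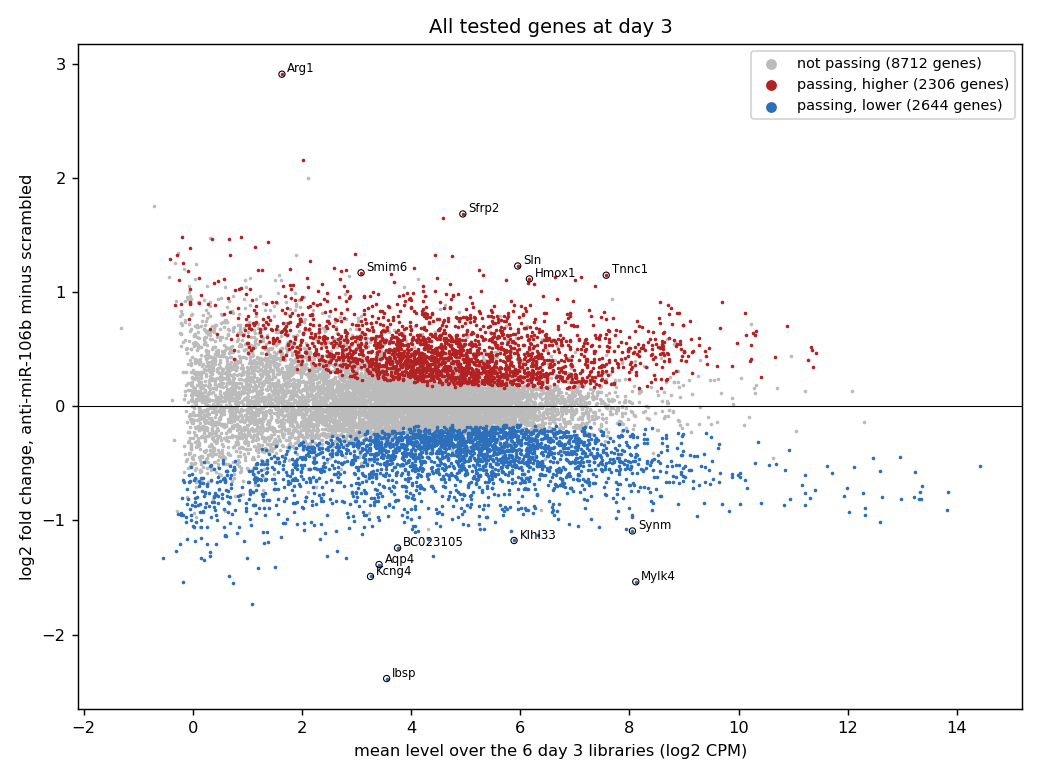
Log2 fold change at day 3 (anti-miR-106b minus scrambled, vertical) against the mean level over the 6 day 3 libraries (log2 CPM, horizontal) for all 13662 tested genes. Red and blue points passed at an adjusted p below 0.05 as higher (2306) or lower (2644), grey points did not, and circles mark the genes labelled by name.

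The 6 libraries held 28857739 to 37345353 reads. The composition of the 2 arms differed: mitochondrially encoded transcripts took 7.54% to 7.76% of reads in the scrambled libraries and 4.80% to 4.83% in the anti-miR-106b libraries, and the 10 most abundant genes took at least 16.5% in the former and at most 12.1% in the latter. The deposited values carry a composition factor for this. With plain total counts in its place the median gene moved from 0.02 to 0.21 on the log2 scale, and the split of calls went from 2306 higher and 2644 lower to 5175 higher and 1338 lower. All changes below are given with the deposited scaling. With total counts, each of the 75 gene lists had at least as many higher and at most as many lower members. Of the 51 lists with lower members, 11 then had none: interferon receptors and factors, chemokines, chemokine receptors, Toll-like receptors and adaptors, lysosomal membrane and hydrolase genes, collagen processing, elastic fibre, laminins and integrins, replication, fibro-adipogenic progenitor markers and Schwann cell markers. The number of higher genes fell to 1473 without scrambled replicate 2, to 1529 without scrambled replicate 3 and to 1432 without anti-miR-106b replicate 2. In whole muscle, a gain or loss of cells of a type and a change of RNA per cell cannot be told apart.

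Arg1, arginase 1 of alternatively activated macrophages, had the steepest rise among the genes described here. It stood at 0.809, 1.25 and 1.41 CPM in the scrambled libraries and at 10.3, 7.55 and 7.9 CPM in the anti-miR-106b libraries. No values overlapped, and the log2 fold change was 2.91 ± 0.47 (SE, adjusted p = 0.00051). Nos2, the nitric oxide synthase of classically activated macrophages, gave 1.19, 1.46 and 1.14 log2 CPM in the scrambled and 1.43, 0.94 and 1.08 in the anti-miR-106b arm, with overlapping values and a log2 fold change of -0.11 ± 0.18. The mannose receptor Mrc1 (0.14 ± 0.12) and the haemoglobin scavenger receptor Cd163 (-0.26 ± 0.11) did not pass either.

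Sfrp2 (chr3:83766321-83774316, GRCm38) encodes a secreted Wnt-binding protein. It rose most among genes with an ordinary symbol, as set out at the end, that passed without overlap at a mean of at least 3 log2 CPM. Its level was 4.26, 3.98 and 4.08 log2 CPM in the scrambled libraries and 5.67, 5.94 and 5.76 in the anti-miR-106b libraries. The arms were fully apart, 3.22-fold on the linear scale (log2 1.69 ± 0.38, adjusted p = 0.00427). Its relative Sfrp1 (chr8:23411502-23449632) rose as well, from 3.61, 3.33 and 3.42 to 4.55, 4.79 and 4.64 log2 CPM (log2 1.21 ± 0.16, adjusted p = 0.000187). Ltbp2 (chr12:84783212-84876532), a microfibril protein related to the latent TGF-beta binding proteins, went from 4.07, 3.45 and 3.76 to 5.39, 5.47 and 5.37 log2 CPM (log2 1.65 ± 0.21, adjusted p = 0.000145). In each of these genes the lowest anti-miR-106b library was above the highest scrambled one, which the ranking required. Other genes at the top were the leukocyte gene Lst1 (1.32 ± 0.24), the matrix genes Col8a2 (1.16 ± 0.21) and Eln (1.14 ± 0.12), the LIM protein Csrp2 (1.15 ± 0.17), slow and cardiac troponin C Tnnc1 (1.15 ± 0.29), the interferon genes Isg15 (1.20 ± 0.18) and Irf7 (1.14 ± 0.19), Nt5dc2 (1.12 ± 0.16) and the haem oxygenase Hmox1 (1.12 ± 0.14). Sarcolipin Sln (1.23 ± 0.36) and the small membrane protein Smim6 (1.17 ± 0.36) were also among them. Sln lost its call without scrambled replicate 2 or anti-miR-106b replicate 2, and Smim6 without any one of 5 day 3 libraries, all but scrambled replicate 1.

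Ibsp (chr5:104299171-104311469, GRCm38) encodes integrin-binding sialoprotein of mineralising matrix. It fell most among genes with an ordinary symbol that passed at a mean of at least 3 log2 CPM and whose arms did not overlap. It read 4.73, 4.75 and 4.76 log2 CPM in the scrambled libraries and 2.72, 1.94 and 2.41 in the anti-miR-106b libraries. The scrambled values were almost the same, the treated ones were spread wider and all lay far below, and the gene was 5.23-fold lower (log2 -2.39 ± 0.36, adjusted p = 0.000325). Its neighbour Spp1 (chr5:104435118-104441050), osteopontin, belongs to the same family of glycoproteins. Spp1 read 8.54, 8.54 and 8.55 log2 CPM in the scrambled and 8.88, 9.24 and 9.17 in the anti-miR-106b arm, and did not pass (log2 0.55 ± 0.26, adjusted p = 0.109). The other 14 genes at this end included several known from mature muscle fibres. Mylk4 (chr13:32700834-32783954), a kinase of the myosin light chain kinase family, read 8.48, 9.22 and 8.96 against 7.10, 7.45 and 7.50 log2 CPM (log2 -1.54 ± 0.15, adjusted p = 3.53e-05). Aqp4, the water channel of the fast fibre membrane, read 3.85, 4.28 and 4.19 against 3.03, 2.40 and 2.74 (log2 -1.39 ± 0.15, adjusted p = 4.44e-05). The arms did not overlap in either gene, which the ranking required. The potassium channel genes Kcng4 (-1.49 ± 0.19) and Kcna7 (-1.07 ± 0.11), the kelch gene Klhl33 (-1.18 ± 0.12), the Z-disc associated peptidase gene Ky (-1.13 ± 0.11), the intermediate filament gene Synm (-1.09 ± 0.11) and Phka1 of muscle phosphorylase kinase (-1.08 ± 0.10) fell with them. The remaining ones were Smco1 (-1.16 ± 0.13), Osbpl6 (-1.10 ± 0.12), the phosphatase Ptpn3 (-1.09 ± 0.19), Pfkfb1 (-1.09 ± 0.15), Fam131a (-1.08 ± 0.10) and BC023105 (-1.24 ± 0.23).

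**Figure D2:**
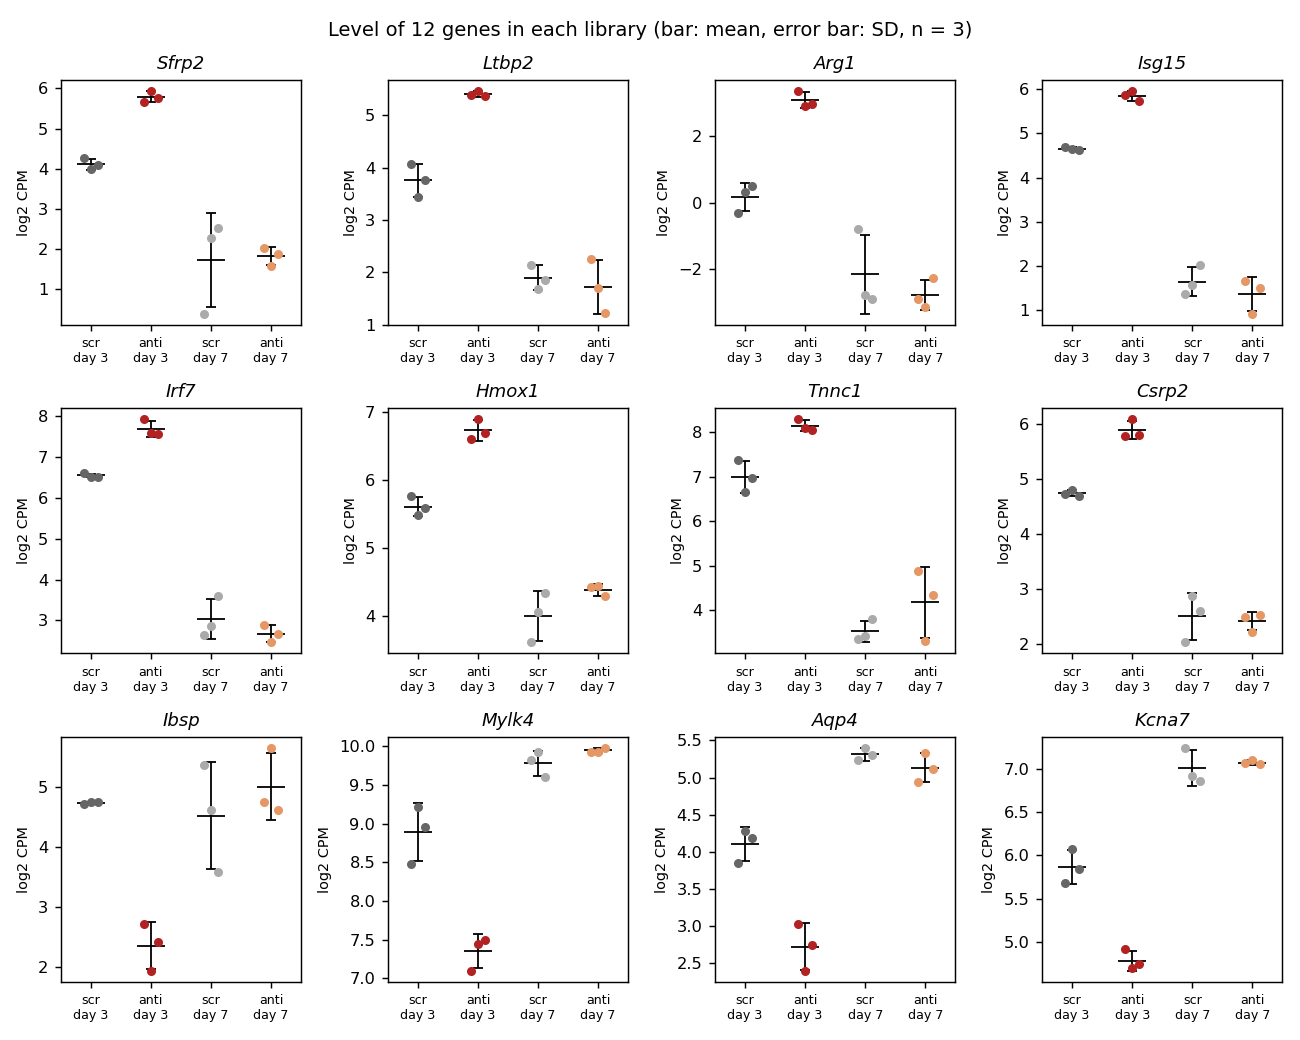
Level (log2 CPM) of 12 genes in each library of the 4 groups (scr: scrambled, anti: anti-miR-106b), with the mean and SD of 3 libraries. At day 3 the red anti-miR-106b points lie wholly above or wholly below the dark grey scrambled points in all 12 panels. For every gene but Arg1 this was a condition of its choice.

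Interferon-stimulated genes rose almost as a block. These genes answer type I and II interferons through STAT and IRF factors and encode proteins that sense, degrade or sequester foreign nucleic acid. Of 36 antiviral effectors tested, 34 rose and 2 did not pass, and the median change was 0.76 on the log2 scale against 0.02 over all genes. Isg15, a ubiquitin-like protein joined to other proteins after interferon, read 4.69, 4.64 and 4.63 log2 CPM in the scrambled libraries and 5.87, 5.95 and 5.73 in the anti-miR-106b libraries. The values left a wide gap between the arms (log2 1.20 ± 0.18, adjusted p = 0.000298). Uba7, which activates Isg15 (0.83 ± 0.09), and Ube2l6, which carries it (0.75 ± 0.11), rose as well. So did Ifit3 (1.07 ± 0.13), which binds foreign RNA, and the nucleotide hydrolase Samhd1 (0.44 ± 0.07).

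The signalling layer above them moved too. Stat2 read 5.23, 5.22 and 5.21 log2 CPM in the scrambled and 6.03, 5.95 and 5.90 in the anti-miR-106b arm (log2 0.74 ± 0.09, adjusted p = 0.00014), with no overlap. Of 17 receptors, STATs and IRFs, 10 rose, among them Irf7 (1.14 ± 0.19), Irf8 (0.69 ± 0.15) and the receptor Ifnar2 (0.53 ± 0.11), and 1 fell. That one was Ifngr2, a chain of the interferon gamma receptor, at -0.29 ± 0.07, and it lost its call with total-count scaling. Among 15 interferon-induced GTPases, 9 rose, with Irgm1 at 0.50 ± 0.07, Gbp2 at 0.53 ± 0.10 and Ifi47 at 0.77 ± 0.16. This count was between 3 and 5 when any 1 of the 6 day 3 libraries was left out.

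Antigen presentation split by class. MHC class I genes rose in 18 of 20 cases, median 0.58, and none fell. The immunoproteasome subunit Psmb8 went from 4.58, 4.74 and 4.67 to 5.68, 5.48 and 5.53 log2 CPM and Psmb9 from 3.93, 3.98 and 4.03 to 4.86, 4.76 and 4.79. Both sets of values were apart, with log2 fold changes of 0.90 ± 0.14 and 0.82 ± 0.12 (adjusted p = 0.00034 and 0.00024). The peptide loading gene Tapbp (0.58 ± 0.07), H2-T22 (0.68 ± 0.07) and the proteasome activator Psme1 (0.46 ± 0.07) were similar. Of 10 MHC class II genes none passed in limma and 1 had an unadjusted p below 0.05, although all 10 had positive values, with a median of 0.28. Without day 7 scrambled replicate 1 the class II count was 2, without day 7 anti-miR-106b replicate 2 it was 1, with the day 3 libraries fitted alone it was 7 and with total-count scaling 5. The difference between the classes was not tested.

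Interferon factors bind the interferon-stimulated response element, and promoters of the genes that moved together are shown for that reason. The core GAAANNGAA was searched on both strands in RefSeq windows (GRCm38.p6) from 250 bases before to 50 bases after each start. Capitals mark the first match.
Isg15, chr4:156200878-156200906, minus strand: tatgccgtagGAAAAGGAAaccgaaacag
Ifit3, chr19:34583364-34583392, plus strand: agtggtaagtTTCACTTTCctcttctggt
Bst2, chr8:71537584-71537612, minus strand: ggcattccagGAAAATGAAactgaaaggc
Oas1a, chr5:120907527-120907555, minus strand: cccttctcggGAAATGGAAactgaaaatc
Gbp2, chr3:142620595-142620623, plus strand: ctcttttagtTTCACTTTCactgtcttaa
B2m, chr2:122147538-122147566, plus strand: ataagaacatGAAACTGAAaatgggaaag
The letters occurred in 15 of 26 antiviral effector genes with a window (57.7%), in 9 of 10 interferon-induced GTPases (90%) and in 5 of 17 MHC class I genes (29.4%). Over 10450 tested genes with a window the share was 8.98%, 938 genes. In Isg15 the first of 2 matches began 78 bases before the start. Of the 15 effector genes with a match, 14 rose, with a median of 0.84, beside 34 of 36 in the whole effector list. Over all 938 genes with a match 210 rose and 158 fell, with a median of 0.06. Of the 9 GTPases with a match 5 rose. A match describes letters and was not tested as a binding site.

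Genes of phagocytes rose along with macrophage markers. Of 20 Fc receptor and ITAM signalling genes, which relay antibody binding to phagocytosis, 17 rose, median 0.63. Fcgr4, an activating receptor for IgG, read 4.28, 4.10 and 4.15 log2 CPM in the scrambled and 5.50, 5.05 and 5.20 in the anti-miR-106b arm, without overlap (log2 1.07 ± 0.26, adjusted p = 0.00556). Its partner chain Fcer1g (0.85 ± 0.20), the kinase Lyn (0.60 ± 0.11) and Plcg2 (0.59 ± 0.11) rose as well. The Fc receptor and ITAM count was 9 without scrambled replicate 2, 11 without scrambled replicate 3, 10 without anti-miR-106b replicate 1 and 11 without anti-miR-106b replicate 2. All 6 NADPH oxidase genes, which make superoxide in phagosomes, were positive and 5 passed, led by Ncf4 (0.83 ± 0.14) and Rac2 (0.78 ± 0.15). That count was 3 without scrambled replicate 2 or anti-miR-106b replicate 1. The complement genes C1qa (0.77 ± 0.17) and C1qb (0.82 ± 0.18) and properdin, Cfp (0.78 ± 0.12), rose among 6 of 21. Over all tested genes 16.9% rose. The complement inhibitor Cd55 fell (-0.63 ± 0.10).

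Lysosomal cathepsins, the proteases that digest engulfed material, rose in 10 of 15 cases, median 0.46. Ctsd (0.62 ± 0.08), Ctsa (0.48 ± 0.07) and Ctsb (0.52 ± 0.09) were among them. Other lysosomal proteins rose in 13 of 27 cases and fell in 2, with Npc2 (0.69 ± 0.07), Hexa (0.56 ± 0.07) and Naglu (0.62 ± 0.09). Iron genes moved in opposite directions. Hmox1, which opens haem, read 5.76, 5.48 and 5.59 against 6.60, 6.89 and 6.69 log2 CPM in the scrambled and anti-miR-106b libraries, and the ferritin light chain Ftl1 read 9.42, 9.10 and 9.23 against 10.15, 10.20 and 10.14. The transferrin receptor Tfrc, which imports iron, read 8.34, 8.67 and 8.54 against 7.70, 7.42 and 7.57. The haem oxygenase and the iron store were higher in every treated library and the importer lower, with log2 fold changes of 1.12 ± 0.14, 0.92 ± 0.14 and -0.95 ± 0.13 (adjusted p = 0.000137, 0.000296 and 0.000204). In all, 5 of 17 haem and iron genes rose and 2 fell, and 3 rose when any 1 day 3 library was left out. Over all tested genes 16.9% rose and 19.4% fell.

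Efferocytosis genes, for the receptors and bridging proteins by which phagocytes take up dead cells, rose in 8 of 17 cases and fell in 1. The scavenger receptor Stab1 read 7.40, 7.40 and 7.44 log2 CPM in the scrambled libraries and 8.05, 8.16 and 8.05 in the anti-miR-106b libraries. Its paralog Stab2, known from sinusoidal endothelium, read 2.19, 2.64 and 2.53 against 1.60, 1.55 and 1.56. The pair moved in opposite directions without overlap (log2 0.67 ± 0.10 and -0.88 ± 0.21, adjusted p = 0.000283 and 0.00568). Gas6 (0.34 ± 0.06), a bridge to the TAM receptors, the uptake receptor Megf10 (0.58 ± 0.13) and Lrp1 (0.36 ± 0.07) rose as well. Of 17 cholesterol and lipid handling genes 8 rose, including the oxysterol receptor Nr1h3 (0.41 ± 0.08) and the fatty acid carrier Fabp5 (0.70 ± 0.18), with counts of 2 to 4 when any 1 day 3 library other than anti-miR-106b replicate 3 was left out.

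Signals that attract or activate leukocytes rose in part. Of 22 chemokines 7 rose and 1 fell, or 4 rose without anti-miR-106b replicate 2. Pf4, released by platelets and macrophages, read 5.70, 5.60 and 5.64 log2 CPM in the scrambled and 6.32, 6.49 and 6.31 in the anti-miR-106b arm, fully apart (log2 0.73 ± 0.10, adjusted p = 0.000202). Cxcl16 (0.89 ± 0.20) and the interferon-induced Cxcl9 (0.90 ± 0.26) rose too, as did the receptor Cxcr4 (0.68 ± 0.15). Of 21 Toll-like receptor genes and adaptors 6 rose, with the adaptor Myd88 (0.59 ± 0.10), the trafficking protein Unc93b1 (0.63 ± 0.14) and Tlr2 (0.59 ± 0.15), and 1 fell. That count was 3 without scrambled replicate 3 and 10 without day 7 anti-miR-106b replicate 2. The counts of this paragraph stand beside 16.9% higher and 19.4% lower over all tested genes. Growth factor signals of the macrophage were among 11 of 28 cytokine and receptor genes that rose, with Csf1 (0.42 ± 0.10) and Csf2rb (0.55 ± 0.13). Immediate early transcription factors, which answer acute stimulation, passed in 1 of 24 cases, Ier3 (0.56 ± 0.10). That list had 10 higher and 3 lower members with the day 3 libraries fitted alone, 8 higher with total-count scaling, and 2 higher without day 7 scrambled replicate 1 or day 7 anti-miR-106b replicate 3.

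Macrophage markers were higher: 9 of 21 rose, none fell, and their summed level went from 3579 to 3679 CPM in the scrambled libraries to 4926 to 5343 CPM in the anti-miR-106b libraries. Aif1 read 5.33, 5.00 and 5.24 against 6.47, 6.18 and 6.24 log2 CPM (log2 1.11 ± 0.20, adjusted p = 0.00108), and Csf1r, the receptor for the macrophage growth factor, rose by 0.48 ± 0.12. Timd4 of resident macrophages was below the level tested. Inflammatory monocyte markers summed to 1049 to 1194 CPM and 1252 to 1276 CPM. Of their 13 genes 3 rose, beside 16.9% over all tested genes. The largest change in that list, 2.91, was that of Arg1, named above as a gene of alternatively activated macrophages. T and NK cell markers summed to 18.2 to 19.2 CPM and 25.4 to 34.3 CPM, and 12 of 19, the T cell receptor genes among them, were not at a level to be tested. Cd4, the coreceptor of helper T cells, read 2.31, 2.38 and 2.29 log2 CPM in the scrambled and 3.48, 3.26 and 3.29 in the anti-miR-106b libraries, higher in all 3 (log2 1.01 ± 0.27, adjusted p = 0.00979). Neutrophil markers summed to 36.2 to 52.8 CPM and 42.9 to 57.2 CPM, with overlapping ranges. None of 6 tested passed in limma, and none had an unadjusted p below 0.05, but 2 passed without scrambled replicate 3, 2 with the day 3 libraries fitted alone and 1 without day 7 anti-miR-106b replicate 2. The neutrophil median of 0.49 was -0.14 with library weights. The part of these cell markers in the rise of interferon, Fc receptor, oxidase, lysosome and iron genes was not tested. Of the inflammatory cytokines, Tnf (-0.34, 0.19 and 0.29 against 0.19, 0.15 and -0.03 log2 CPM) and Il1b (0.72, -0.12 and 0.38 against 1.56, 0.92 and 0.97) did not pass, and Tgfb1 rose by 0.63 ± 0.13. Among receptors, Il4ra rose (0.80 ± 0.13) and the interleukin-33 receptor Il1rl1 fell (-0.85 ± 0.21).

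Matrix genes rose in classes that build and cross-link fibres. Of 26 collagen-modifying and cross-linking genes 15 rose and 1 fell, median 0.35. The lysyl oxidases Loxl3 (0.86 ± 0.09) and Lox (0.62 ± 0.09), the chaperone Fkbp10 (0.83 ± 0.12) and the lysyl hydroxylase Plod2 (0.49 ± 0.07) were in this group. The single lower gene was the collagen galactosyltransferase Colgalt2, at -0.39 ± 0.12, and it lost its call with total-count scaling and without scrambled replicate 2, scrambled replicate 3 or anti-miR-106b replicate 1. Elastic fibre genes rose in 9 of 19 cases and fell in 1, median 0.46, with Eln, Ltbp2, Emilin1 (0.82 ± 0.11) and Mfap4 (1.08 ± 0.18). Matricellular genes, whose proteins signal to cells more than they bear load, rose in 11 of 23. Tenascin C, Tnc, read 6.60, 6.32 and 6.45 log2 CPM in the scrambled libraries and 7.65, 7.53 and 7.50 in the anti-miR-106b libraries, and periostin, Postn, read 9.73, 9.69 and 9.71 against 10.41, 10.61 and 10.55. Neither gene overlapped between arms (log2 1.11 ± 0.13 and 0.82 ± 0.08, adjusted p = 5.87e-05 and 3.83e-05). Ctgf (0.92 ± 0.15) and Wisp1 (0.78 ± 0.13), proteins of the CCN family, rose as well. Tendon markers, which share Tnc, summed to 686 to 874 CPM and 957 to 1037 CPM, and 3 of 10 rose, including Scx (0.70 ± 0.10), or 6 of 10 without scrambled replicate 1. Fibro-adipogenic progenitor markers, from the stromal cells that lay down matrix, summed to 2265 to 2590 CPM and 2205 to 2289 CPM. Of their 14 genes 1 rose and 2 fell, with a median of -0.12 that turned to 0.07, with 3 higher and none lower, under total-count scaling. The lower count was 0 without scrambled replicate 2 or 3, 1 without any 1 anti-miR-106b day 3 library and 4 without day 7 scrambled replicate 1. The part of either cell type in the matrix changes was not tested.

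Small leucine-rich proteoglycans, which bind collagen fibrils, rose in 4 of 11 cases. Biglycan, Bgn, read 9.40, 9.27 and 9.30 log2 CPM in the scrambled and 10.02, 10.06 and 9.95 in the anti-miR-106b arm, without overlap (log2 0.68 ± 0.12, adjusted p = 0.000745). Aspn (0.55 ± 0.09) and Ogn (0.48 ± 0.10) rose with it. Of 19 basement membrane laminin and muscle integrin genes 4 were higher and 2 lower, beside 16.9% and 19.4% over all tested genes. The fibronectin receptor chain Itga5 (0.47 ± 0.12) was higher. Lama2, the laminin chain of the muscle basement membrane, was -0.37 ± 0.10 and lost its call with total-count scaling and without anti-miR-106b replicate 2.

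The collagen chains themselves passed in both directions, with 7 of 32 higher and 6 lower. The counts in this paragraph stand beside 16.9% higher and 19.4% lower over all tested genes, and the collagen counts are near those shares. Col1a1 (0.47 ± 0.12), Col5a1 (0.51 ± 0.12), Col16a1 (0.58 ± 0.06) and both chains of collagen VIII, Col8a1 (0.66 ± 0.14) and Col8a2, rose. Col22a1 of the muscle-tendon junction (-0.82 ± 0.14) and Col24a1 (-0.67 ± 0.12) fell. Without day 7 scrambled replicate 1 the higher count was 13. Of 32 metalloproteinase and inhibitor genes 6 rose and 7 fell, or 2 to 4 fell without any 1 day 3 library other than scrambled replicate 1. Among them, the aggrecanase genes Adamts5 (-0.66 ± 0.09) and Adamts1 (-0.51 ± 0.09) fell and Adam12 (0.59 ± 0.11), which acts on fusing myoblasts, rose. TGF-beta family genes passed in both directions, 5 higher and 10 lower of 40, with a median of -0.01 that turned to 0.18, with 13 higher and 2 lower, under total-count scaling. Tgfb1 and Tgfb3 (0.59 ± 0.07) rose, and the receptors Acvr1b (-0.57 ± 0.09) and Bmpr2 (-0.47 ± 0.09) fell. Tgfbr2, a reported target of miR-106b, read 6.32, 6.53 and 6.53 against 6.65, 6.63 and 6.64 log2 CPM and did not pass (0.18 ± 0.09). The lower count of this list was 5 without scrambled replicate 2 and 6 without either anti-miR-106b replicate 1 or 3, and its median was 0.03 without scrambled replicate 3.

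Cell cycle genes mostly had positive values. The counts of passing genes in this paragraph stand beside 16.9% higher and 19.4% lower over all tested genes. Replication licensing and fork genes, which open and copy DNA in S phase, rose in 17 of 49 cases and fell in 1, with a median of 0.29. Rfc2 (0.45 ± 0.06), Rfc5 (0.52 ± 0.10), the ligase Lig1 (0.68 ± 0.14) and the polymerase Pold1 (0.43 ± 0.09) rose with Mcm7. The count was 11 without anti-miR-106b replicate 2. All 56 spindle, kinetochore and cytokinesis genes, which act in mitosis, had positive values, with a median of 0.49, and 13 passed. Kif22, a chromosome-bound kinesin (0.69 ± 0.14), and the condensin gene Ncapd2 (0.34 ± 0.08) passed in every alternative. The spindle count was 48 when the 6 day 3 libraries were fitted alone. It was 5 without scrambled replicate 2, 4 without scrambled replicate 3, 2 without anti-miR-106b replicate 2 and 6 without anti-miR-106b replicate 3. Of 30 genes for cyclins, cell cycle inhibitors, E2F factors and related proteins 4 rose and 4 fell, and 21 had positive values. In that list 8 rose without day 7 scrambled replicate 1. Cdk4 (0.42 ± 0.07) rose, and so did the cell cycle inhibitors Cdkn1a and Cdkn1c (0.70 ± 0.19), while E2f6 (-0.50 ± 0.10), a repressor of the E2F family, and Tfdp2 (-0.50 ± 0.06), a partner of E2F proteins, fell. E2f1, a reported target of miR-106b that drives S phase genes, read 3.09, 3.12 and 3.08 against 3.64, 3.56 and 3.25 log2 CPM. The arms did not overlap but the change missed the threshold (0.39 ± 0.15, adjusted p = 0.055).

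E2F factors bind promoters of replication genes, and the letters TTTGGCGC and TTTCGCGC were searched on both strands in the same windows.
Mcm7, chr5:138171850-138171877, minus strand: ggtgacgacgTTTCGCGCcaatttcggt
Mcm6, chr1:128359798-128359825, minus strand: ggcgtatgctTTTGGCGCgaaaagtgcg
Cdt1, chr8:122568037-122568064, plus strand: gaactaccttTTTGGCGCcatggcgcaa
Lig1, chr7:13278842-13278869, plus strand: gccaaagtgcGCGCGAAAtctgtgtggc
They were found in 13 of 40 replication genes with a window (32.5%), against 182 of 10450 tested genes (1.74%). Of those 13 genes 5 rose and none fell, beside 17 of 49 higher in the whole replication list and 41 higher and 23 lower among the 182 genes with the letters. In Mcm7 the match begins 16 bases after the start, and it is also the promoter region of the gene that carries miR-106b.

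Myogenic regulators rose beside a set of early muscle genes. Myod1, which commits myoblasts, read 6.61, 6.30 and 6.43 log2 CPM in the scrambled libraries and 6.86, 7.17 and 6.81 in the anti-miR-106b libraries. Myog, which starts differentiation, read 7.94, 7.59 and 7.79 against 8.48, 8.60 and 8.48. Neither overlapped between arms, and the log2 fold changes were 0.50 ± 0.13 and 0.74 ± 0.22 (adjusted p = 0.0112 and 0.017), both lost without scrambled replicate 2 or without anti-miR-106b replicate 2. Pax7 of satellite cells (0.21 ± 0.12) and Myf5 (0.10 ± 0.23) did not pass, and Myf5 changed sign without scrambled replicate 2. M-cadherin, Cdh15, of satellite cells and myoblasts read 6.10, 5.92 and 5.99 against 6.66, 6.69 and 6.49 (log2 0.61 ± 0.07, adjusted p = 6.93e-05). In all 14 of 29 satellite cell and myogenic genes rose and 3 fell, Mef2c among the latter (-0.58 ± 0.06). The higher count was 8 without scrambled replicate 2 and 7 without anti-miR-106b replicate 2. Of 23 fusion genes 10 rose and 1 fell. Igf1 was 0.43 ± 0.15 and lost its call in 7 alternatives, among them the omission of any day 3 library except scrambled replicate 1. Mstn, which restrains muscle growth, fell by 0.55 and lost its call with total-count scaling and without scrambled replicate 3. Igf2, H19 and Fst did not pass (0.15 ± 0.27, 0.13 ± 0.15 and 0.18 ± 0.15).

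Genes of the mature fibre fell. Thick filament, Z-disc and M-band genes, which order the sarcomere, fell in 21 of 36 cases, median -0.35, and 1 rose. Myoz1 of the Z-disc (-0.91 ± 0.09), Myom2 of the M-band (-0.64 ± 0.07), nebulin, Neb (-0.69 ± 0.09), and titin, Ttn (-0.79 ± 0.11), were lower. The 1 higher gene was Myom3, at 0.55 ± 0.18, and its call was lost without the trend in the prior variance and without any 1 day 3 library except scrambled replicate 1. Calcium handling genes fell in 20 of 28 cases, median -0.36, with the calcium channel subunit Cacna2d1 (-0.80 ± 0.06), junctophilin Jph1 (-0.81 ± 0.08) and calsequestrin Casq1 (-0.80 ± 0.11). The single higher gene was Sln, an inhibitor of the calcium pump. Excitability channels and pumps fell in 18 of 23 cases and rose in 3, median -0.57. The chloride channel Clcn1, which steadies the resting potential, read 6.07, 6.25 and 6.17 log2 CPM in the scrambled libraries and 5.30, 5.16 and 5.18 in the anti-miR-106b libraries (log2 -0.95 ± 0.09, adjusted p = 3.19e-05). Every anti-miR-106b library lay below every scrambled one. All 32 muscle ubiquitin ligase and kelch genes, many of which mark proteins for degradation, had negative values, and 21 passed, median -0.50. Klhl31 (-0.68 ± 0.07), Asb15 (-0.99 ± 0.10) and Klhl21 (-0.74 ± 0.09) were among them. Each of these lists also had a negative median with total-count scaling, from -0.16 for the thick filament list to -0.38 for the channels.

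The dystrophin complex links the cytoskeleton to the matrix and is incomplete in mdx muscle. In a list of its genes together with those of membrane repair, 13 of 33 fell and 3 rose. The median of -0.11 turned to 0.08 with total-count scaling. The mutated Dmd transcript read 4.10, 4.17 and 4.05 log2 CPM in the scrambled libraries and 3.62, 3.54 and 3.61 in the anti-miR-106b libraries, lower in every treated library (log2 -0.52 ± 0.08, adjusted p = 0.00039). Beta-sarcoglycan, Sgcb (-0.36 ± 0.06), and alpha-dystrobrevin, Dtna (-0.49 ± 0.05), fell and beta-dystrobrevin, Dtnb (0.74 ± 0.15), rose. Utrophin, Utrn, the relative of dystrophin, read 5.31, 5.16 and 5.19 against 5.25, 5.17 and 5.21, with overlapping arms (-0.01 ± 0.08) and a sign that depended on the setting. At the synapse the adult receptor subunit Chrne (-0.82 ± 0.13) and Ache (-0.66 ± 0.10) fell, and Chrnd rose (0.79 ± 0.18). The adult fast myosins Myh4 and Myh1 fell, from 13.99, 14.40 and 14.23 to 13.57, 13.42 and 13.39 log2 CPM and from 13.48, 13.54 and 13.52 to 12.93, 13.00 and 12.88. Their log2 fold changes were -0.75 ± 0.15 and -0.58 ± 0.12 (adjusted p = 0.00177 and 0.00254), but with quantile normalization they turned to 0.08 and 0.18 and did not pass. The fast myosin Myh2 read 8.35, 8.71 and 8.59 against 8.85, 9.39 and 9.09, higher in every anti-miR-106b library without passing (log2 0.56 ± 0.34, adjusted p = 0.214). Over all 12 tested heavy chain genes 8 were positive, with a median of 0.36, and 1 passed as higher and 2 as lower. Embryonic Myh3 (0.72 ± 0.28) and neonatal Myh8 (0.59 ± 0.31) were higher in every anti-miR-106b library and did not pass. Slow Myh7 (0.98 ± 0.81) overlapped between the arms.

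Thin filament and light chain genes passed in both directions. Of 12 troponin and tropomyosin genes 6 rose and 5 fell. Embryonic and cardiac troponin T, Tnnt2 (0.92 ± 0.24), and the slow or cytoskeletal tropomyosins Tpm3 (0.49 ± 0.10) and Tpm4 (0.40 ± 0.09) rose. Of 19 light chain, light chain kinase and actin genes 10 rose and 5 fell, or 6 rose without anti-miR-106b replicate 2. Smooth muscle and non-muscle Myl9 (0.75 ± 0.11), the slow and embryonic Myl6b (0.74 ± 0.15) and beta-actin, Actb (0.54 ± 0.08), were higher, as was the non-muscle myosin Myh9 (0.48 ± 0.09). The skeletal light chain kinase Mylk2 fell with Mylk4 (-0.85 ± 0.10). Among noncoding RNAs the abundant nuclear transcripts Malat1 and Neat1 fell, from 7.68, 7.52 and 7.72 to 7.11, 6.87 and 7.31 log2 CPM and from 9.82, 9.63 and 9.80 to 9.34, 9.21 and 9.25. Neither overlapped between arms (log2 -0.55 ± 0.11 and -0.48 ± 0.10, adjusted p = 0.00229 and 0.00274).

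Energy metabolism fell as a block. Of 29 genes of the tricarboxylic acid cycle 26 fell, median -0.55. The citrate synthase gene Cs (-0.62 ± 0.07), Idh3a (-0.72 ± 0.08) and Sucla2 (-0.71 ± 0.07) were lower, and the pyruvate dehydrogenase kinase Pdk3 was the 1 that rose (0.38 ± 0.12), a call lost without scrambled replicate 2, scrambled replicate 3 or anti-miR-106b replicate 2. In the respiratory chain 36 of 37 complex I genes, all 9 of complex III, 10 of 15 of complex IV and 15 of 17 of the ATP synthase fell, and 2 of complex IV and 1 of the ATP synthase rose. Medians lay between -0.49 for complexes I and III and -0.40 for the ATP synthase. Of 15 mitochondrially encoded genes 9 were at a testable level. The filter left out mt-Nd3, mt-Nd4l, mt-Co2, mt-Co3, mt-Atp6 and mt-Atp8, and why these read so low was not tested. All 9 tested genes fell too, median -0.81. Under quantile normalization 6 of them fell and their median was -0.38, no longer the lowest, with the excitability channels at -0.60. For mt-Nd5 the values were 12.50, 12.46 and 12.48 log2 CPM in the scrambled and 11.65, 11.54 and 11.48 in the anti-miR-106b arm, all lower with the anti-miR (log2 -0.92 ± 0.11, adjusted p = 6.75e-05). The coactivator Ppargc1a, which drives mitochondrial genes, read 4.09, 4.23 and 4.26 against 3.49, 3.50 and 3.50 (log2 -0.70 ± 0.12, adjusted p = 0.000625). Fatty acid oxidation genes fell in 20 of 34 cases and rose in 1, and branched-chain amino acid breakdown genes fell in 17 of 21. Genes for mitochondrial ribosomes moved less, with 20 of 76 lower and 1 higher. Their median of -0.13 became 0.06 with total-count scaling, where 14 were higher and 4 lower. Their lower count was 9 without scrambled replicate 2 and 13 without scrambled replicate 3 or anti-miR-106b replicate 3.

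Glycogen genes fell in 14 of 22 cases and glycolytic genes in 16 of 27, medians -0.50 and -0.53, and 3 and 4 rose. Under quantile normalization the glycolytic median was -0.29, with 14 lower and 6 higher. Phosphorylase kinase subunits Phka1 and Phkg1 (-1.05 ± 0.09) and the glycogen-targeting subunit Ppp1r3a (-1.03 ± 0.08) fell. So did Ldha (-0.73 ± 0.09) and Pgk1 (-0.52 ± 0.06). The pentose phosphate pathway, which makes NADPH and ribose, went the other way. Its first enzyme G6pdx (0.62 ± 0.09), Pgd (0.47 ± 0.09) and Tkt (0.47 ± 0.07) rose among 13 of 28 genes of that pathway and of nucleotide synthesis, and 4 fell. The count was 8 without scrambled replicate 2 and 7 without anti-miR-106b replicate 2. Hypoxia-responsive and angiogenic Vegfa read 6.52, 6.66 and 6.62 log2 CPM in the scrambled libraries and 5.72, 5.64 and 5.73 in the anti-miR-106b libraries, lower in all 3 (log2 -0.91 ± 0.13, adjusted p = 0.000215).

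Several lists that passed in both directions split by isoform. In many enzymes and fibre proteins a gene used by mature muscle has a paralog used by other tissues, embryonic muscle or slow fibres. A set of 26 such pairs was drawn up after these values were seen, so it is a description. The muscle member fell in all 26 pairs, median -0.79. The other member rose in 15, median 0.46, and fell in none. Creatine kinase shows the pattern: muscle Ckm read 12.81, 13.22 and 13.03 log2 CPM in the scrambled and 12.31, 12.30 and 12.08 in the anti-miR-106b arm, and brain-type Ckb read 6.72, 6.47 and 6.62 against 7.39, 7.39 and 7.18. In cytochrome oxidase the heart and muscle subunit Cox8b read 8.08, 8.27 and 8.18 against 7.40, 7.49 and 7.12, and ubiquitous Cox8a read 6.75, 6.54 and 6.58 against 7.22, 7.26 and 7.12. Each pair parted without overlap and in opposite directions (log2 -0.79 ± 0.13 and 0.72 ± 0.09, -0.84 ± 0.13 and 0.58 ± 0.10). The same opposition held for Pygm (-0.86 ± 0.10) and Pygb (0.51 ± 0.08) of glycogen phosphorylase, Pfkm (-0.76 ± 0.11) and Pfkl (0.78 ± 0.14) of phosphofructokinase, and the adenine nucleotide carriers Slc25a4 (-0.81 ± 0.10) and Slc25a5 (0.36 ± 0.10). Fast troponin C, Tnnc2, fell (-0.70 ± 0.09) while slow Tnnc1 rose. Slow troponin T, Tnnt1, rose (1.05 ± 0.28), and fast Tnnt3 was lower by 0.70, with a change to 0.10 under quantile normalization. Pairs without a call for the other member included Acta1 and Actc1 and the acetylcholine receptor subunits Chrne and Chrng, where Chrng was 0.82 ± 0.34. Under quantile normalization the muscle member fell in 20 pairs, Ckm not among them. The other member rose in 9 without anti-miR-106b replicate 2.

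**Figure D3:**
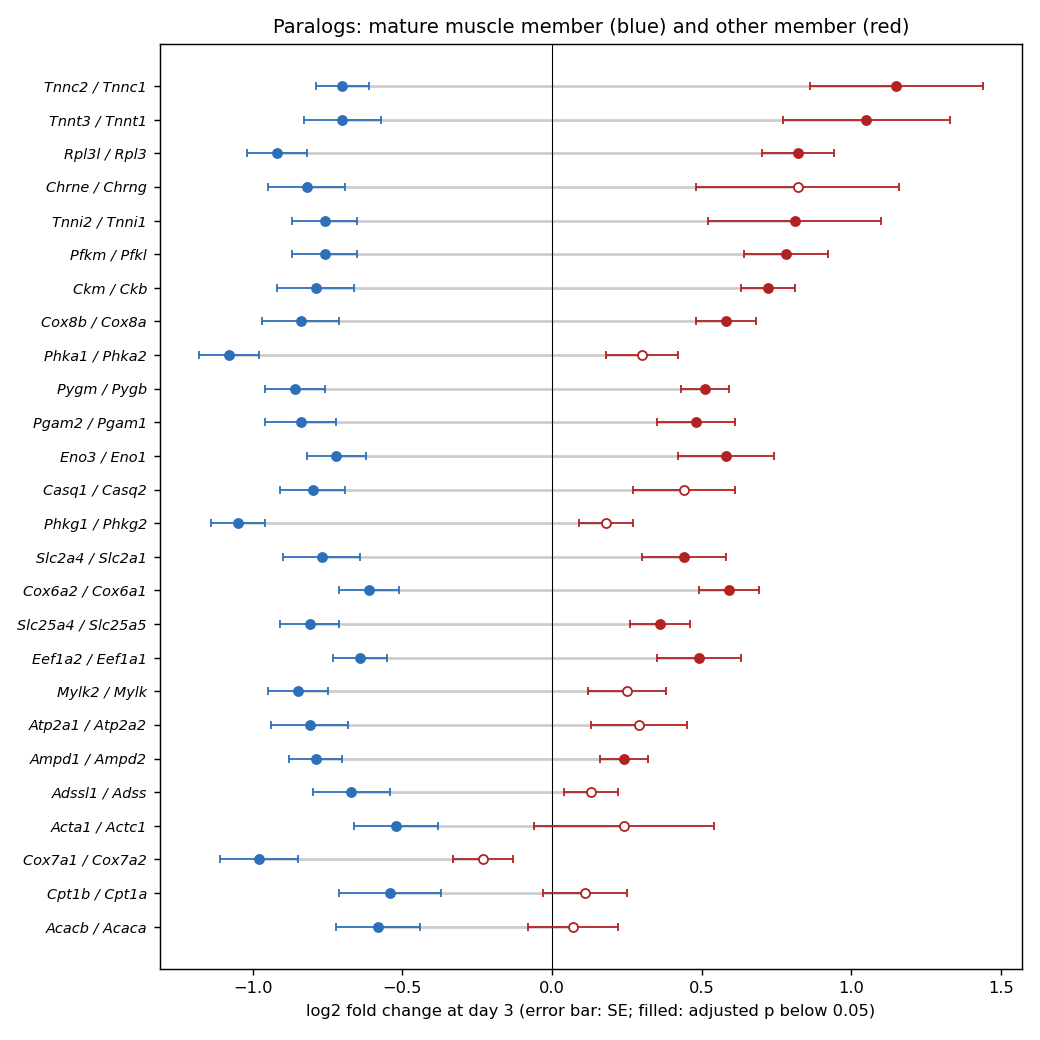
Log2 fold change at day 3 with SE for 26 pairs of paralogs, the member of mature muscle in blue and the other in red, filled where the adjusted p was below 0.05. All 26 blue points are filled and below 0, and 15 red points are filled and above 0.

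Ribosomal proteins gave the most uniform rise of the long lists. Of 82 cytosolic ribosomal protein genes 79 rose, 1 fell and 2 did not pass, median 0.47. Rpl3 read 8.59, 8.38 and 8.45 log2 CPM in the scrambled libraries and 9.29, 9.27 and 9.31 in the anti-miR-106b libraries. The 1 that fell was Rpl3l, its paralog of striated muscle, at 8.08, 8.43 and 8.27 against 7.41, 7.35 and 7.27. The pair had log2 fold changes of 0.82 ± 0.12 and -0.92 ± 0.10 (adjusted p = 0.000234 and 5.36e-05). Many ribosomal protein genes have processed copies, and how reads between copies were counted is not given in the sources used here. Of 31 proteasome subunits 2 were higher, median 0.04, although 26 rose with total-count scaling. The proteasome count was 1 without scrambled replicate 3 or anti-miR-106b replicate 2, and 4 to 5 without day 7 scrambled replicate 1 or 3 or day 7 anti-miR-106b replicate 3. Chaperones and genes of the unfolded protein response rose in 14 of 32 cases and fell in 2, with Calr (0.46 ± 0.07), Pdia3 (0.48 ± 0.08) and Creld2 (0.55 ± 0.10), and Dnajb9 (-0.46 ± 0.09) lower. Between 8 and 9 of them rose without any 1 day 3 library other than anti-miR-106b replicate 1.

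Circadian clock genes fell in 8 of 19 cases and none rose, median -0.29. The nuclear receptor gene Nr1d2, a repressor in the clock, read 6.39, 6.44 and 6.52 log2 CPM in the scrambled and 5.73, 5.67 and 5.81 in the anti-miR-106b arm. Per3, a period gene, read 4.37, 4.31 and 4.36 against 3.53, 3.76 and 3.73. Neither overlapped (log2 -0.71 ± 0.09 and -0.67 ± 0.13, adjusted p = 8.14e-05 and 0.00168). Rora (-0.67 ± 0.07) and Tef (-0.52 ± 0.06) fell too. The hour of collection is not given in the sources used here.

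**Figure D4:**
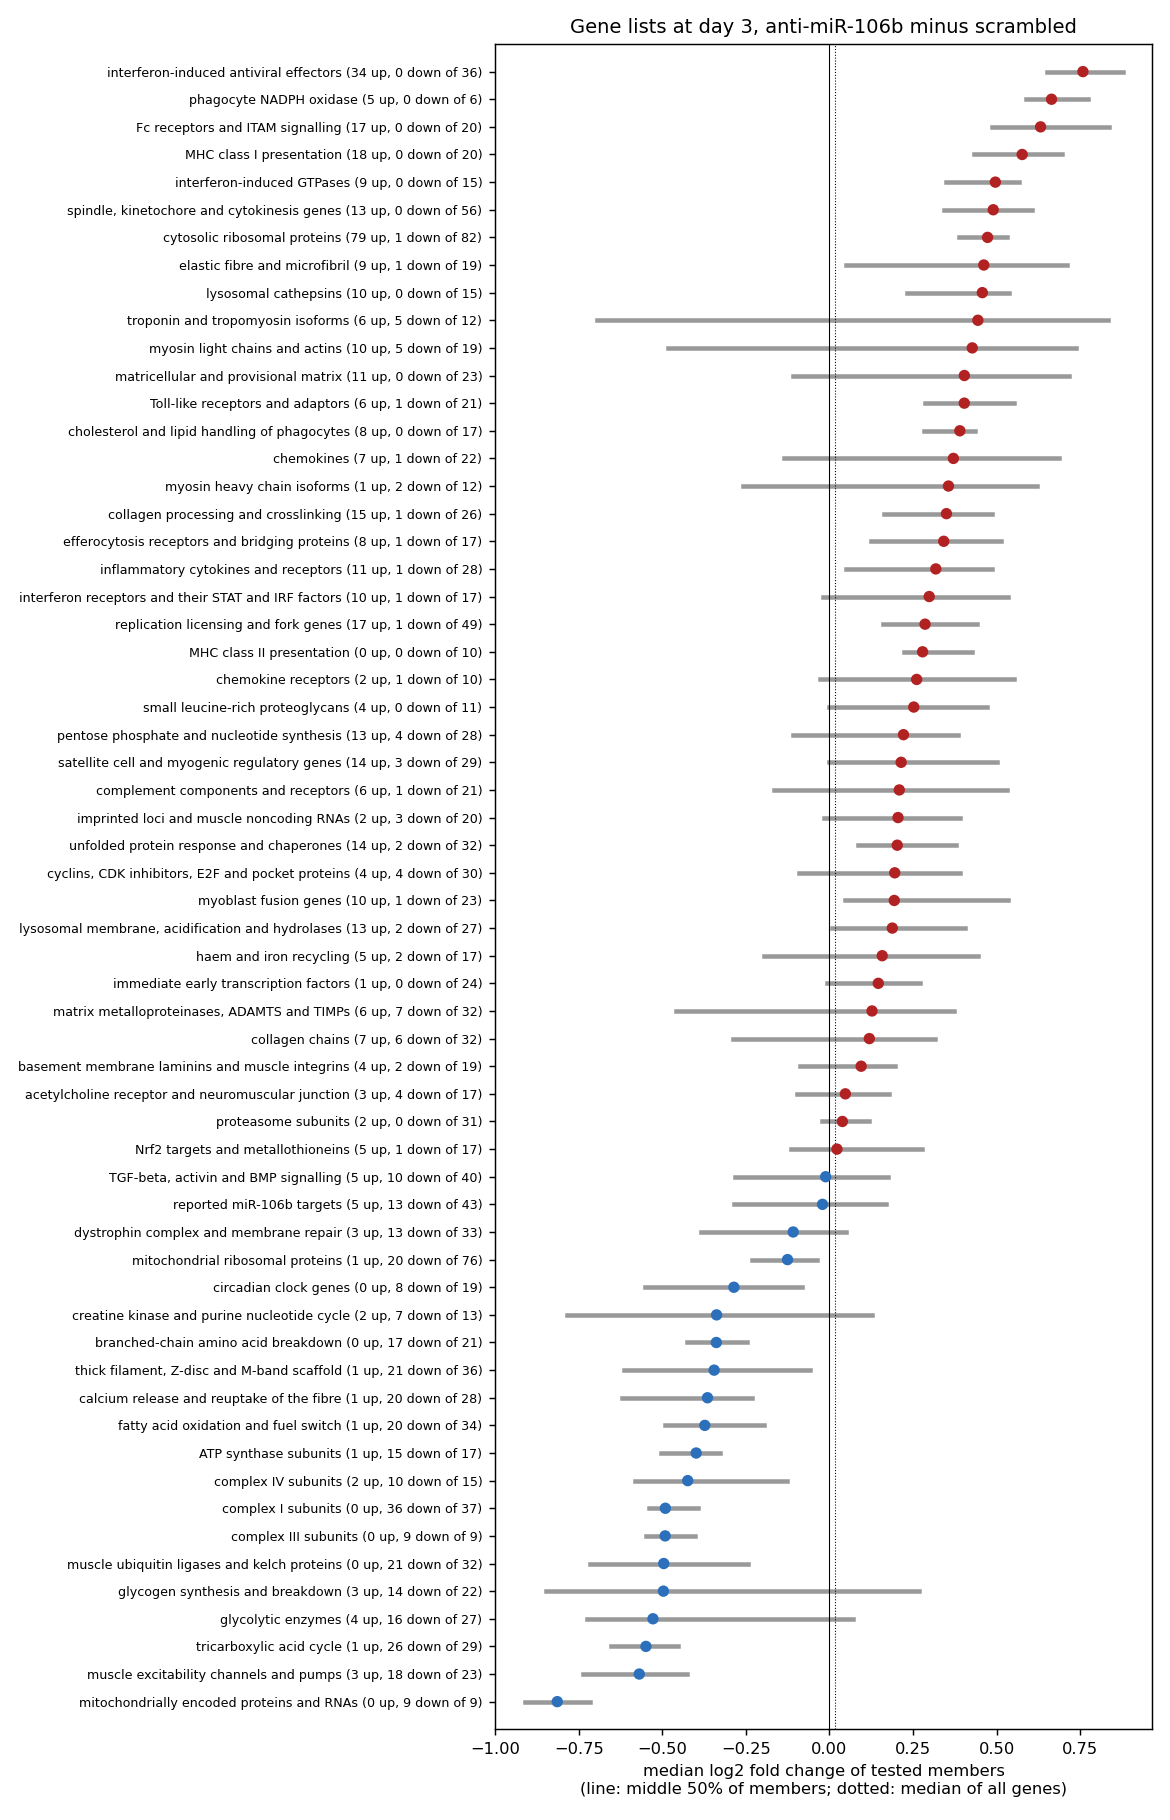
Median log2 fold change at day 3 of the tested members of each list of at least 5 genes other than cell type markers, with a line over the middle 50% of members and the number that passed in each direction in the label. Antiviral effectors stand at the top (0.76) and mitochondrially encoded genes at the bottom (-0.81), and the dotted line is the median of all genes (0.02).

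Markers of other resident cells passed in part. Endothelial markers rose in 8 of 16 cases, median 0.25, and summed to 340 to 363 CPM in the scrambled libraries and 389 to 425 CPM in the anti-miR-106b libraries. Eng (0.60 ± 0.08) and Plvap (0.52 ± 0.07) were among them, and the count was 5 without anti-miR-106b replicate 2. Pericyte and smooth muscle markers summed to 5890 to 6285 CPM and 5468 to 5935 CPM, with Tagln (0.87 ± 0.13) and Pdgfrb (0.45 ± 0.08) higher and Abcc9 lower (-0.70 ± 0.08). Adipocyte markers summed to 293 to 354 CPM and 254 to 284 CPM, and 4 of 10 fell, led by the lipid droplet gene Plin4 (-1.01 ± 0.11), or 2 without scrambled replicate 2, scrambled replicate 3 or anti-miR-106b replicate 1. Schwann cell markers overlapped in sum, 92.5 to 104 CPM and 88.9 to 95.0 CPM, and 1 of 9 passed. Keratinocyte genes summed to at most 14.4 CPM in any library. Erythrocyte markers summed to 58.0 to 154 CPM and 147 to 166 CPM, with a passing call for 1 of 5 genes, Alas2, which was lost when any 1 day 3 library was left out. Without scrambled replicate 2, 2 other erythrocyte genes passed.

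The day 3 effect was set beside the day 7 effect to see which part of it differed between the days. At day 7 only 6 of 13662 genes passed (0.0439%), while 1546 had an unadjusted p below 0.05. The spread within groups was wider there, with a median SD per gene of 0.144 and 0.128 on the log2 scale against 0.081 and 0.083 at day 3. The difference of the 2 effects passed its own test in 3122 genes (22.9%), and in 2793 of the 4950 day 3 genes (56.4%). Those genes include 26 of the 29 genes of the tricarboxylic acid cycle, 30 of 36 antiviral effectors, 58 of 82 ribosomal proteins and 17 of 32 ubiquitin ligase and kelch genes. By contrast 4 of 56 spindle genes, 1 of 20 Fc receptor and ITAM genes and 2 of 21 macrophage markers passed it. Ibsp read 5.37, 4.62 and 3.59 log2 CPM in the day 7 scrambled libraries and 4.76, 5.66 and 4.62 in the day 7 anti-miR-106b libraries. These overlapped, and its effect was -2.87 lower at day 3 than at day 7 on the log2 scale (adjusted p = 0.00239). For Arg1 the difference was 3.52 (adjusted p = 0.00345).

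Endothelial markers had the opposite sign at the 2 days. Their median was 0.25 at day 3 and -0.35 at day 7, and the difference passed in 13 of 16 genes. Eng was -0.29 at day 7, a difference of 0.89 (adjusted p = 0.000744), and the apelin receptor Aplnr was 0.33 ± 0.06 at day 3 and -0.57 at day 7 (adjusted p of the difference 0.00028). Clock genes were reversed in the other sense, with medians of -0.29 and 0.21 and a passing difference in 11 of 19. Per3 was 0.50 at day 7. The aggrecanases Adamts5 and Adamts1 were 0.44 and 0.39 at day 7, with adjusted p values of the difference of 0.000553 and 0.000856. Of these genes, Aplnr passed the day 7 comparison on its own (adjusted p = 0.00636) and Eng, Per3, Adamts5 and Adamts1 did not.

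**Figure D5:**
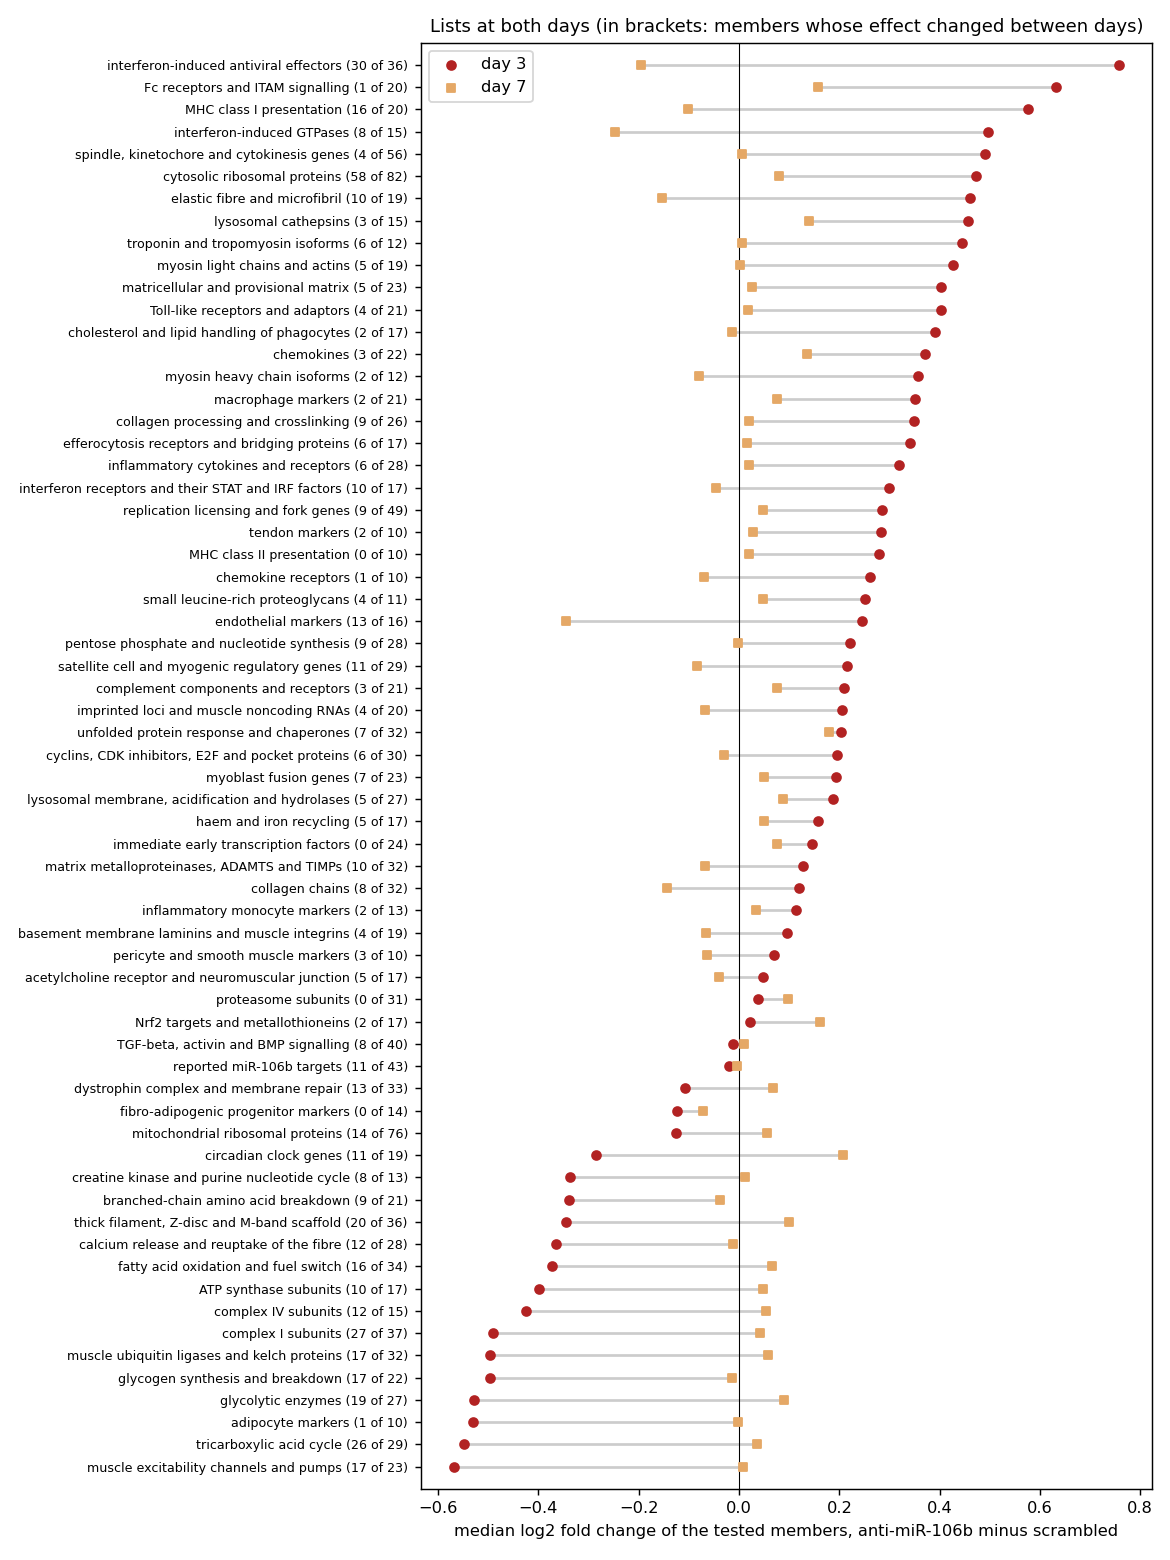
Median log2 fold change of the tested members of each list with at least 10 genes at day 3 (red circles) and at day 7 (squares), with the number of members whose effect differed between the days in brackets. Red points reach from -0.57 to 0.76, while the squares lie between -0.35 and 0.21.

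The change with time in the scrambled arm gives a scale for these values. From day 3 to day 7 the median of the antiviral effectors fell by 2.11 on the log2 scale, that of macrophage markers by 2.43 and that of spindle genes by 2.38, and at day 3 the same lists were 0.76, 0.35 and 0.49 higher with anti-miR-106b. The tricarboxylic acid cycle rose by 0.88 with time and was 0.55 lower with anti-miR-106b, and the excitability channels rose by 0.80 and were 0.57 lower. Endothelial markers rose by 0.69 with time and were 0.25 higher with anti-miR-106b. Ibsp was -0.22 with time. Both contrasts use the same scrambled day 3 libraries, so opposite signs can arise from those libraries alone and the values are only set side by side.

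Genes with a seed match for miR-106b were not raised as a class with the deposited scaling. Seed classes were counted with that scaling only, and total counts moved the median of all tested genes from 0.02 to 0.21. One 3′ UTR per gene was searched, the longest that GENCODE M21 annotates (GRCm38), and the strongest match was classed as an 8mer GCACTTTA, 7mer-m8 GCACTTT, 7mer-A1 CACTTTA, 6mer CACTTT or none. Of 567 genes with an 8mer, 9.52% rose and 26.5% fell, with a median of -0.07. Among 7229 genes with no match 20.9% rose and 17.1% fell, with a median of 0.06. The 7mer-m8, 7mer-A1 and 6mer classes had medians of -0.04, -0.04 and 0.01. In these classes 12.4%, 10.4% and 15.6% rose and 23.2%, 22.8% and 18.9% fell. The share that rose was thus lowest with an 8mer and highest with no match. The share that fell was highest with an 8mer and lowest with no match. The classes also differ in length, with a median UTR of 2766 bases for 8mer genes and 845 bases for those with none. Among genes with a UTR of 1000 to 3000 bases, a limit chosen after seeing the data, 12.3% of 252 8mer genes rose and 25.8% fell, and 17.8% of 2704 genes with none rose and 19.2% fell. Those medians were -0.05 and 0.03. In this range of lengths the 7mer-A1 genes had the lowest share that rose, 10.3%.

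Reported targets are shown with the first seed match in their UTR, in capitals, for 1 gene that rose, 4 that fell and Tgfbr2, which did not pass.
Cdkn1a, chr17:29099817-29099843, plus strand: cagacctgaataGCACTTTggaaaaat
Vldlr, chr19:27249395-27249421, plus strand: ctggccaaatatGCACTTTccctagaa
Mfn2, chr4:147873752-147873779, minus strand: atttagcagagaGCACTTTAgttttttg
Fyco1, chr9:123789723-123789750, minus strand: aacagttagagtGCACTTTAattcatta
Klf9, chr19:23165693-23165719, plus strand: tgaacataaactGCACTTTtattttct
Tgfbr2, chr9:116090065-116090092, minus strand: ccaataacgtttGCACTTTAttaatgcc
Cdkn1a, the p21 inhibitor of cyclin-dependent kinases, read 256, 202 and 222 CPM in the scrambled libraries and 392, 359 and 352 CPM in the anti-miR-106b libraries, higher in all 3 (log2 0.70 ± 0.13, adjusted p = 0.00129). The lipoprotein receptor Vldlr read 7.02, 7.31 and 7.20 against 6.26, 6.06 and 6.26, lower in all 3 (log2 -0.98 ± 0.11, adjusted p = 4.9e-05). Mitofusin 2, Mfn2, which joins mitochondria, read 8.40, 8.64 and 8.54 against 7.86, 7.75 and 7.76 (log2 -0.74 ± 0.10, adjusted p = 0.000142), and these arms did not overlap either. The autophagy adaptor Fyco1 (-0.63 ± 0.06) and the glucocorticoid-induced factor Klf9 (-0.78 ± 0.11) fell. Of 43 reported targets 5 rose and 13 fell, median -0.02, and with total-count scaling 13 rose and 7 fell, median 0.17. With the deposited scaling 16.9% of all tested genes rose and 19.4% fell. The lists of targets were gathered from general knowledge of the field, and a match of letters is no measure of binding.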

How the data were processed

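RNA of 12 tibialis anterior muscles was sequenced (TruSeq libraries, per the labels' protocols). The submitters' processing notes name the mm10 genome and STAR, featureCounts, limma 3.34.9, edgeR 3.20.9, Trim Galore 0.4.3.1 and FastQC 0.72. Their order and the handling of strand and multi-mapped reads are not given in the sources used here. The authors deposited log2 CPM values per gene symbol. These are whole reads within 0.01 of a read in every library, and hold a composition factor and a small prior count. Groups were compared with limma 3.58.1 (R 4.3.3) on the deposited log2 values of all 12 libraries, with 1 mean per group, a trended prior variance, 8 residual and 5.53 prior degrees of freedom, and Benjamini-Hochberg adjustment over 13662 genes. Tests were two-sided. With 3 animals an arm, exact permutation cannot give a p under 0.1. Fold changes understate those of low genes. The script was tested on simulated data. Replicate numbers were not used to pair libraries in the main fit.

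The 15 largest passing changes per direction at a mean of at least 3 log2 CPM with non-overlapping arms were named. So were up to 5 and 2 passing members of each of 75 gene lists, and a fixed set. The ranking by size kept ordinary symbols. It left out Gm and LOC numbers, symbols that end in Rik or contain -ps, and mt-, Mir, Snor, Rn and n-R names. Paralog pairs and promoter examples were added after values were seen. Some results are not reported here. Members and lists were chosen with earlier results of these data known. Gene positions are from GENCODE M21 (27907 of 28116 symbols matched). Alternatives changed the libraries fitted, the filter, an added CPM, scaling, weights, the variance trend, the replicate block and each library.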

Additional observations from a re-analysis of the deposited data

Results flagged for a closer look

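The genes named by size of change were checked for a difference between their day 3 and day 7 effects, tested as a contrast in the same limma fit, and 26 of them passed. For other named genes the test is given in the report where a day 7 value is used. Among the genes higher at day 3, the day 3 effect exceeded the day 7 effect on the log2 scale by 1.82 for Ltbp2, 1.59 for Sfrp2, 1.49 for Isg15, 1.49 for Irf7, 1.36 for Sfrp1, 1.31 for Eln, 1.26 for Col8a2, 1.23 for Csrp2, 1.15 for Nt5dc2, 1.08 for Lst1 and 0.74 for Hmox1. The adjusted p of these ran from 0.000608 for Eln to 0.0494 for Sfrp2. Sln, Smim6 and Tnnc1 did not pass this test.

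Among the genes lower at day 3, the difference of the effects was -2.87 for Ibsp, -1.70 for Mylk4, -1.41 for Ptpn3, -1.36 for Pfkfb1, -1.27 for BC023105, -1.21 for Aqp4, -1.20 for Kcng4, -1.14 for Kcna7 and -1.11 for Ky. It was -1.10 for both Synm and Phka1, -1.04 for Fam131a, -1.02 for Osbpl6, -1.01 for Smco1 and -0.86 for Klhl33. The adjusted p of these ran from 0.000567 for Phka1 to 0.0137 for BC023105. All 15 lower genes passed.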

How the results depend on the processing

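Against 2306 higher, 2644 lower and 3122 differing between days, the higher count moved by over 1.5 times to 3838 with the 6 day 3 libraries fitted alone, to 5175 with total-count scaling (1338 lower) and to 4472 with library weights (4251 lower, 5321 differing). Leaving out 1 library gave 1432 to 2685 higher, 1970 to 2892 lower and 2071 to 4544 differing. With the replicate block the counts were 2139, 2554 and 2821. Residuals of same-numbered day 3 libraries correlated at 0.0471, 0.0423 and 0.115, and those of day 7 at 0.0126, -0.0409 and 0.139. Between differently numbered libraries of opposite arms they ran from -0.0607 to -0.00166 at day 3 and from -0.209 to 0.175 at day 7. These small values do not settle whether the numbers pair the libraries. Of 394 named genes that passed, 305 kept call and direction in every alternative. Signs reversed with quantile normalization for Myh1 (0.18), Myh4 (0.08), Mylpf (0.21) and Tnnt3 (0.10), and for Utrn (0.00), and with total-count scaling for Mcoln1 (0.01), Nos2 (0.08) and Utrn (0.18). They reversed with library weights for Nos2 (0.03), Tnf (-0.09) and Utrn (0.02). Without 1 library the sign varied for Myf5 (-0.02 to 0.29), Tnf (-0.14 to 0.17) and Utrn (-0.04 to 0.04), none of them past the threshold. The cause was not tested. Omitting a library leaves a day 3 arm with 2, assumed to vary like the other groups. At 1 CPM a gene has 35.5 to 46.9 reads, which limits low genes.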
